A study of Homo sapiens with 10 samples.

Results

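Genes of the MHC class I antigen presentation pathway were examined in RS4;11 leukemia lines. The 9 members are the heavy chains HLA-B, HLA-C and HLA-E, the light chain B2M, the peptide transporter subunits TAP1 and TAP2, the loading chaperone TAPBP, the immunoproteasome subunit PSMB9 and the transactivator NLRC5. They were taken as listed symbols and matched through GENCODE 29 to 9 of the 63677 gene identifiers in the count files. Only 3 of the 9 (HLA-B, B2M and NLRC5) had enough counts to be among the 16756 genes tested.

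RS4;11 is an established cell line of B-cell precursor acute lymphoblastic leukemia that carries a KMT2A rearrangement. In the study, 5 lines were adapted to rising concentrations of venetoclax, an inhibitor of the anti-apoptotic protein BCL2 (VENins), and 5 control lines received the solvent DMSO (VENsens). RNA of each line was sequenced as 1 library, with 20631907 to 28323643 counts on genes in VENsens and 21145316 to 25394653 in VENins. All 10 lines descend from 1 parental line and were grown as separate cultures, so the p-values describe the spread between lines of this model and not between patients.

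Class I molecules carry peptides from cytosolic proteins to the cell surface, where CD8 T cells read them. Proteasomes cut the proteins, the TAP transporter moves the fragments into the endoplasmic reticulum, and tapasin (encoded by TAPBP) helps a heavy chain paired with beta-2-microglobulin take up a fitting peptide. Interferon and NLRC5 raise transcription of most genes of this route together, and leukemia cells of the B lineage normally display class I.

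Markers of the labelled cell type were checked first. Of 14 B-lineage lymphoblast markers, 13 had a mean of at least 1 CPM (counts scaled to library size after trimmed mean of M values normalization), led by IGLL1 with 681 CPM in VENsens and 766 CPM in VENins, and CD34 had 8 counts in all. Their summed level was 4000, 3985, 3924, 4021 and 3987 CPM in VENsens lines 1 to 5 and 3942, 3964, 3932, 3805 and 4386 CPM in VENins lines 1 to 5. Single markers of low level varied more. DNTT ranged from 3.05 to 8.31 CPM in VENsens and from 1.08 to 27.3 CPM in VENins. BLNK ranged from 2.12 to 3.94 CPM and from 1.18 to 9.55 CPM, in the same order. Of the 13 tested markers, 1 passed the test, the B-lineage factor PAX5 (log2 fold change -0.31, edgeR quasi-likelihood test, adjusted p = 0.0272), and its call was lost without line pair 2, 3 or 5 (-0.26, -0.34 and -0.32, adjusted p = 0.242, 0.0597 and 0.0647). Without line pair 4, 3 of the 13 were called. Over all tested genes, 33 of 16756 were called with all lines and 331 of 16768 without line pair 4. Here and below, a gene passed or was called if it did so in edgeR with line number as a term and the low-count filter on, unless another fit is named. Among markers of other cell types, TRBC1, KLRD1, MNDA, S100A8, S100A9, CLEC9A, LUM and DCN had no count in any library, and others were counted. The most abundant genes of the T and NK cell, monocyte, dendritic cell, mature B and plasma cell and stromal lists were NKG7 (49.5 and 53.7 CPM in VENsens and VENins), CSF1R (8.77 and 10.2 CPM), CCR7 (3.41 and 3.05 CPM), SDC1 (7.37 and 7.89 CPM) and VIM (728 and 834 CPM), and the stromal marker PDGFRB, named after the values were seen, had 14.5 and 13.4 CPM. VIM was higher in VENins by 0.19 on the log2 scale (adjusted p = 0.120 in edgeR and 0.0483 in DESeq2, both with the line number). All 4 tested genes of the mature B and plasma cell list were higher in VENins and 0 were called. JCHAIN, also named after the values were seen, moved most (2.80 and 3.98 CPM, log2 fold change 0.50, adjusted p = 0.161, higher in 4 of 5 line pairs), and it was called with no low-count filter (adjusted p = 0.0191) and without VENins line 4 and the term for the line number (0.0330). These are bulk samples, in which fewer cells of a type and less RNA per cell cannot be told apart.

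A single library stood apart from its label. Across all tested genes, VENins line 4 had a mean correlation of log2 CPM of 0.992 with the other VENins lines and 0.994 with the VENsens lines, and no other library was nearer to the other condition. Values of the tested members are given with and without it, the latter also in a fit with no term for the line number that was chosen after the values were seen. VENins line 5 was the least like its own group, with a mean correlation of 0.9918. Of the 20 pairs of libraries within a group, the 4 with the largest spread beyond counting error all held this line (chi-square over degrees of freedom 13.3 to 14.3, and 1.93 to 9.81 in the other pairs).

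Deposited counts of the class I genes differed with the place of the gene. Of the 9 members, 7 are on chromosome 6 in the major histocompatibility complex, and 2 are elsewhere, B2M on chromosome 15 and NLRC5 on chromosome 16. From HLA-F to TAPBP, 122 of 148 protein-coding genes (82.4%) had a count of 0 in all 10 libraries, against 16.6% of the 19228 protein-coding genes elsewhere. Only 4 of the 148 reached a mean of 100 counts per library, HLA-B among them, compared with 49 of the 100 genes after TAPBP and 37 of the 100 genes before HLA-F. The nearest outer genes with a mean of at least 100 counts were ZSCAN12 before it (927 counts) and BAK1 after it (398 counts), with 179 protein-coding genes between them.

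Genes that every cell uses had the same low counts. TUBB, a main beta-tubulin, had 1 count over all 10 libraries, the ribosomal protein gene RPS18 had 3, BAG6 had 4, and DDX39B, CSNK2B, FLOT1, ABCF1, CLIC1 and EHMT2 had 0. The median total of 71 other cytosolic ribosomal protein genes was 134473 counts, and 1 of them was also listed at 0. A value of 0 in this stretch therefore says that the gene is listed at 0, and no limit on expression was drawn from it. Between 24.6% and 26.2% of the reads in each library were set aside for low alignment quality by the authors' counting. Whether the missing reads of this stretch are among them was not tested.

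**Figure D1:**
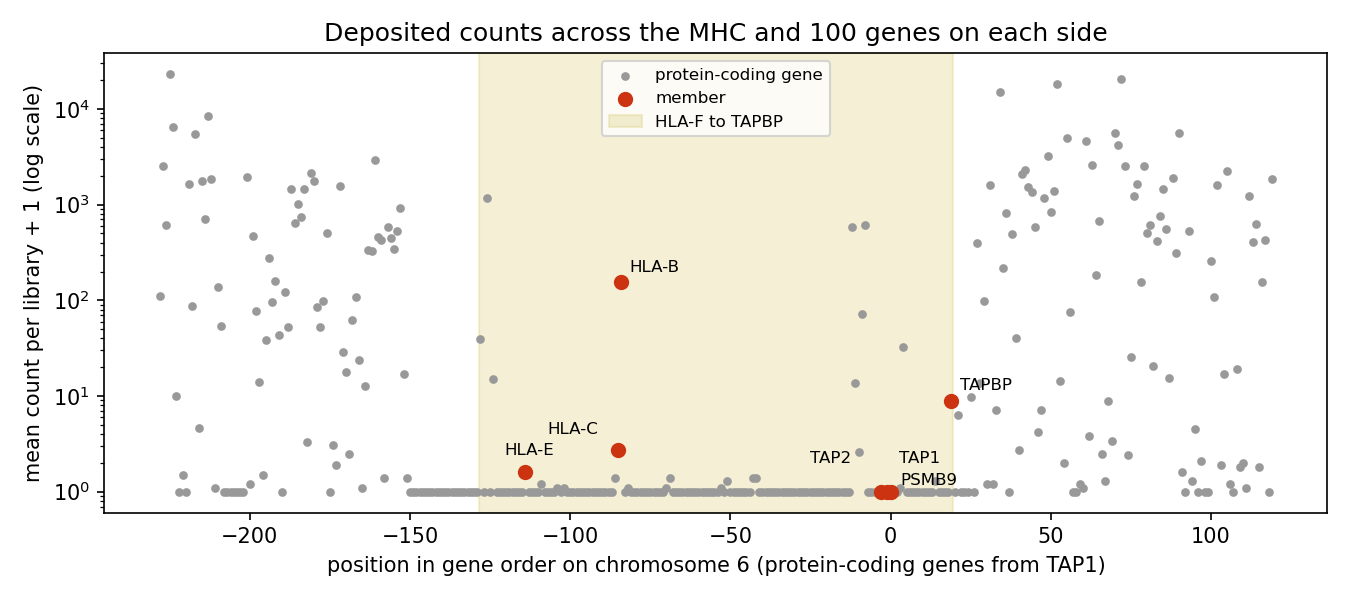
Mean count per library plus 1 (log scale) of each protein-coding gene on chromosome 6, placed by gene order from TAP1, with the class I members in red and the stretch from HLA-F to TAPBP shaded. In the shaded stretch 122 of 148 genes lie at 0 counts, and of the 7 members there HLA-B alone has a mean above 100 counts.

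The heavy chains present the peptide. HLA-B, a classical class I heavy chain, had 7.53, 6.88, 6.23, 5.76 and 6.22 CPM in VENsens lines 1 to 5 and 5.87, 5.03, 5.82, 6.95 and 7.54 CPM in VENins lines 1 to 5. The highest line of each group reached nearly the same level and the groups overlapped, with lower values in VENins in 3 of 5 line pairs. The mean was 6.53 ± 0.687 CPM (SD, n = 5) in VENsens and 6.24 ± 0.997 CPM (SD, n = 5) in VENins, a log2 fold change of -0.07 with a 95% interval of -0.33 to 0.20 and an adjusted p of 0.844 (edgeR). It was 0.01, 0.02, -0.15 and -0.16 without line pairs 1, 2, 4 and 5, and -0.11 without VENins line 4 alone in a fit with no term for the line number. These values rest on 123 to 181 counts per library. They are uncertain, since HLA-B shares sequence with its near-identical relatives and lies in the stretch where most genes are listed at 0.

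HLA-C, the second classical heavy chain among the members, had 3, 1, 2, 1 and 2 counts in VENsens lines 1 to 5 and 1, 3, 0, 2 and 2 counts in VENins lines 1 to 5. HLA-E, a nonclassical chain that NK cells recognise, had 0, 2, 0, 1 and 1 counts in VENsens and 1, 0, 0, 1 and 0 counts in VENins, in the same order. Neither gene passed the filter on low counts. In edgeR with no such filter, 6 members were fitted, these and TAPBP included, and 0 were called.

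The light chain is shared by all class I molecules. B2M had 2013, 2312, 2123, 2025 and 2210 CPM in VENsens lines 1 to 5 and 1974, 2032, 2105, 2330 and 1922 CPM in VENins lines 1 to 5. VENins line 4 was the highest of all 10 libraries and VENins line 5 the lowest, and the groups overlapped. The means were 2137 ± 126 CPM (SD, n = 5) in VENsens and 2073 ± 159 CPM (SD, n = 5) in VENins, with lower values in VENins in 4 of 5 line pairs. The log2 fold change was -0.05 (95% interval -0.17 to 0.08, adjusted p = 0.760, edgeR), which corresponds to a fold of 0.969 with bounds of 0.888 and 1.06. It was -0.11 without line pair 4, -0.09 without VENins line 4 alone in a fit with no term for the line number, and -0.01 without line pair 2 or 5. With 42027 to 60274 counts per library, B2M was the most deeply counted member, and no other annotated gene overlapped it. HLA-B overlapped 7 annotated genes, 4 of them on its own strand and HLA-C among the 7. NLRC5 overlapped 2, with 0 on its own strand.

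**Figure D2:**
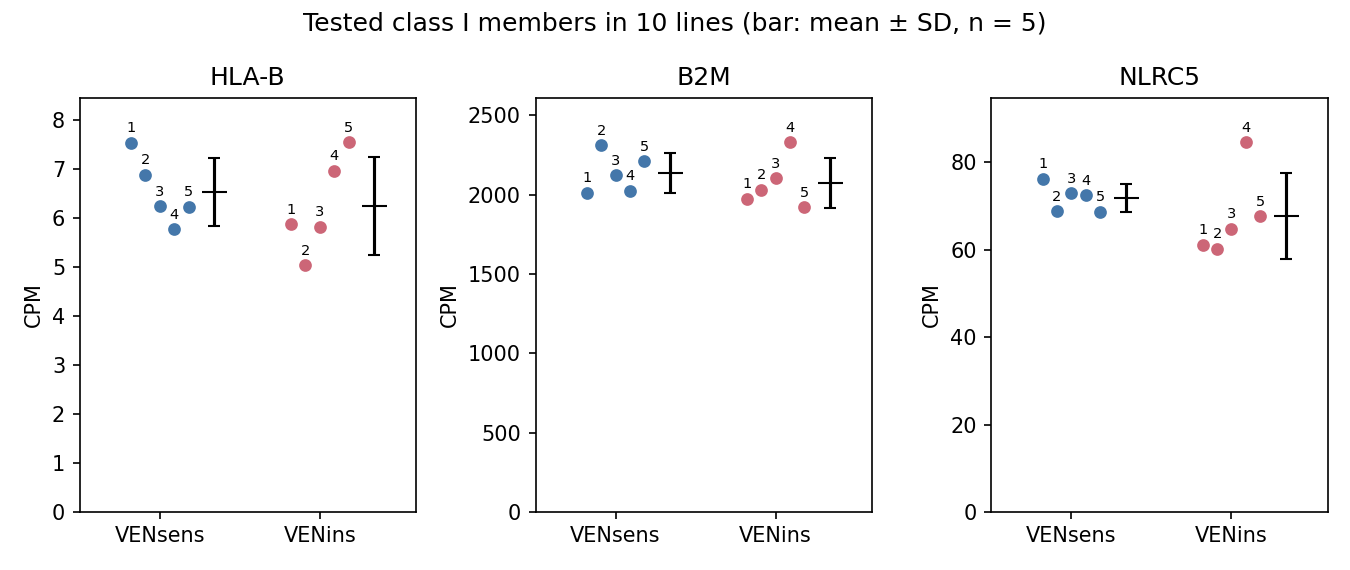
CPM of HLA-B, B2M and NLRC5 in each of 5 VENsens and 5 VENins lines (numbered points), with the mean and SD of each group as a bar. Groups overlap for all 3 genes, and VENins line 4 is the highest VENins line for B2M (2330 CPM) and NLRC5 (84.6 CPM).

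Promoters of 7 of the 9 members were matched in RefSeq (GRCh38.p14, 300 bases around the start), and 3 are shown because they belong to the measured chain pair B2M and HLA-B and to TAP1, of which 1 of 2 windows overlaps that of PSMB9 by 13 bases on the opposite strand. The following letters were searched on both strands: GAAANNGAAA, the core of interferon-stimulated response elements, TGACG, part of the X2 box, and CCAAT, the Y box. They occur in 3.57%, 24.6% and 34.6% of 35116 RefSeq promoters. Capitals mark the matches, overlapping ones joined.
B2M, chr15:44711267-44711566, plus strand: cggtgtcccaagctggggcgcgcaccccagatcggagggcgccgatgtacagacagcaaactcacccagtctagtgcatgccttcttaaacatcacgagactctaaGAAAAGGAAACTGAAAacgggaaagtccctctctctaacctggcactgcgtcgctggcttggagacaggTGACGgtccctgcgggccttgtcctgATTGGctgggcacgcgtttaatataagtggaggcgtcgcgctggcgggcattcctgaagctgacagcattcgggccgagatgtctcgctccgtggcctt
HLA-B, chr6:31357130-31357429, minus strand: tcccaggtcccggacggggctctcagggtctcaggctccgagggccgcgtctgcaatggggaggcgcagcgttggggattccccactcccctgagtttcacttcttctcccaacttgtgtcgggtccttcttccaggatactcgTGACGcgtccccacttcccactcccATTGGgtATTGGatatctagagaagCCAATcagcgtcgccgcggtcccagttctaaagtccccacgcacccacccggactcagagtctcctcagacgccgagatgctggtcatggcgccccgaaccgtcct
TAP1, chr6:32853655-32853954, minus strand: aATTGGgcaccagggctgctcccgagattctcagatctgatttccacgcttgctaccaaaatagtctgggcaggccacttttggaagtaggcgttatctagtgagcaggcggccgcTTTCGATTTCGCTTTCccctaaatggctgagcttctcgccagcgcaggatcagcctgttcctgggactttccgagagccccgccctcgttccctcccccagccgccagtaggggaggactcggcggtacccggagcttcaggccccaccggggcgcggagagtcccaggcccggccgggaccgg

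The B2M window held 2 overlapping matches to the interferon letters, 1 to TGACG and 1 to CCAAT. HLA-B had 1 match to TGACG, 3 to CCAAT and none to the interferon letters, and HLA-C had 1, 4 and none. Of the 2 TAP1 windows, the one shown had 2 interferon matches and 1 to CCAAT, and the other had 0 matches to any of these letters. TAP2 had 1 interferon match and 1 to TGACG, and TAPBP had 2 interferon matches and none to the other letters. PSMB9 had 0 interferon matches, 1 to TGACG and 1 to CCAAT. A match is a description of the letters and says nothing of binding. The files' build is hg19 per the submitters' processing notes, so these positions are those of the RefSeq table alone.

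TAP1 and TAP2 form the transporter that carries peptides into the endoplasmic reticulum. Both were listed at 0 in all 10 libraries. TAPBP, which bridges the transporter and the empty heavy chain, had 8, 10, 7, 9 and 6 counts in VENsens lines 1 to 5 and 9, 9, 8, 5 and 8 counts in VENins lines 1 to 5. Its 79 counts fell short of the filter, and the groups overlapped.

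PSMB9 replaces PSMB6 in the immunoproteasome, the form that favours class I peptides. PSMB9 was listed at 0 in every library, and so was its neighbour PSMB8, so the PSMB9 to PSMB6 and PSMB8 to PSMB5 ratios could not be computed. The immunoproteasome subunit outside the complex, PSMB10, was measured at 28.2 ± 0.950 CPM (SD, n = 5) in VENsens and 29.3 ± 4.67 CPM (SD, n = 5) in VENins. Log2 of the PSMB10 to PSMB7 count ratio was -1.86, -1.78, -1.92, -1.75 and -1.80 in VENsens lines 1 to 5 and -2.03, -2.02, -2.06, -1.98 and -1.56 in VENins lines 1 to 5. VENins lines 1 to 4 lay below all VENsens lines, and VENins line 5 lay above all of them. The mean difference was -0.11 (exact permutation test over all regroupings of the 10 libraries, two-sided, p = 0.310). Without line pair 5 it was -0.19 (exact permutation p = 0.0286, which any full separation of 4 from 4 gives), and without any other pair it lay between -0.10 and -0.08 (exact permutation p between 0.486 and 0.600).

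NLRC5 is the transactivator that acts at class I promoters through the factors bound to the X and Y boxes. Its level was 76.2, 68.7, 73.0, 72.5 and 68.7 CPM in VENsens lines 1 to 5 and 61.2, 60.2, 64.8, 84.6 and 67.6 CPM in VENins lines 1 to 5. VENins lines 1, 2, 3 and 5 lay below every VENsens line, and VENins line 4, the library nearer to the VENsens group over all genes, was the highest of the 10. The means were 71.8 ± 3.18 CPM (SD, n = 5) in VENsens and 67.7 ± 9.90 CPM (SD, n = 5) in VENins. Over all lines the log2 fold change was -0.10 (95% interval -0.25 to 0.06, adjusted p = 0.540, edgeR). Without line pair 1 it was -0.04 (adjusted p = 0.829), without line pair 4 it was -0.18 (unadjusted p = 0.0267, adjusted p = 0.262), and without VENins line 4 alone, in a fit with no term for the line number, it was -0.18 (adjusted p = 0.0764), so NLRC5 did not pass the test with or without that line. The difference shrank to -0.01 (adjusted p = 0.941) when trends on GC content and transcript length were removed per library.

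Of the 3 tested members, 0 passed the adjusted threshold of 0.05 in edgeR and 0 had an unadjusted p under 0.05, against 33 genes (0.197%) and 2710 genes (16.2%) of all 16756 tested. DESeq2 also called 0 of the 3, with and without the line number in the model. None of the 3 had groups that did not overlap, against 781 genes (4.66%) of all tested. All 3 had lower means in VENins, with a median log2 fold change of -0.07, and over all tested genes the median was 0.0035 and 51.1% were higher in VENins. A p that misses the threshold does not show that the levels were equal. The intervals leave room for a decrease of B2M to 0.888-fold, of NLRC5 to 0.843-fold and of HLA-B to 0.796-fold.

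Levels of different members were set against each other per kilobase of exon (RPKM). B2M reached 351 ± 20.8 RPKM (SD, n = 5) in VENsens and 341 ± 26.2 RPKM (SD, n = 5) in VENins, NLRC5 5.80 ± 0.257 and 5.46 ± 0.799 RPKM, and HLA-B 2.14 ± 0.225 and 2.05 ± 0.327 RPKM. The order was B2M, NLRC5, HLA-B in both groups, beyond the spread of each. For HLA-B this is the level of the counted reads alone, because the genes around it are listed at 0.

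Other class I and class I-like chains were counted for 16 of 20 listed symbols, and 9 were tested, with 4 higher and 5 lower in VENins and 0 called in edgeR. MR1, which presents vitamin B metabolites to MAIT cells, lies on another chromosome and had 47.9 and 41.4 CPM (log2 fold change -0.21, adjusted p = 0.176; -0.12 with the GC and length trends removed).

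Partners of peptide processing and loading were measured almost in full, with 21 of 22 tested and only PSMB8 listed at 0. They included the chaperones CALR and CANX, the oxidoreductase PDIA3 and the trimming peptidases ERAP1 and ERAP2. In this list 14 genes were higher and 7 lower in VENins, 4 had an unadjusted p under 0.05, 0 were called in edgeR or in DESeq2 with the line number, 2 in DESeq2 without it (PSME1 and LNPEP), 1 in edgeR with no low-count filter (LNPEP), and the median log2 fold change was 0.02. Over all tested genes, 16.2% had such a p and 0.197% were called in edgeR. DESeq2 without the line number called 739 of 16756, and edgeR with no low-count filter 664 of 32884. The largest difference in the list was that of LNPEP, a peptidase of the endosomal route (120.6 and 94.6 CPM, log2 fold change -0.34, adjusted p = 0.120; -0.22 without line pair 2), which was also called without VENins line 4 and the term for the line number (adjusted p = 0.0456). PSME1, a subunit of the proteasome activator PA28, had groups that did not overlap (156.1 and 169 CPM, log2 fold change 0.12, adjusted p = 0.273), as did the glucosidase subunit GANAB on the lower side (-0.11, adjusted p = 0.283; -0.07 with the GC and length trends removed). UGGT1, the glucosyltransferase that sends unfolded heavy chains back to calreticulin, stood at -0.12 (adjusted p = 0.301), and at -0.03 with these trends removed. The constitutive subunits PSMB6 and PSMB7 were higher in VENins in 5 of 5 line pairs (log2 fold changes 0.20 and 0.15, adjusted p = 0.133 and 0.197), without passing the test, though DESeq2 without the line number called both (adjusted p = 0.0114 and 0.0235). In edgeR without VENins line 4 and the term for the line number, PSMB6 was called (adjusted p = 0.0401) and PSMB7 was not (0.0875). The third, PSMB5, stood at 0.01 (adjusted p = 0.9746), higher in 2 pairs and lower in 3, and turned negative without line pair 2 (-0.03) or 4 (-0.04).

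Factors that act at class I promoters were all measured, 29 of 29, with 16 higher and 13 lower. Of these, 7 had an unadjusted p under 0.05 and 0 were called, against 16.2% and 0.197% of all tested genes. With no low-count filter 2 were called in edgeR (REL and CREBBP, adjusted p = 0.0117 and 0.0222), and with the GC and length trends removed 1 was (IRF1, 0.0394). Over all genes these fits called 664 of 32884 and 142 of 16756. The subunits of the RFX complex, which NLRC5 needs at the X box, had log2 fold changes of -0.03 (RFX5), 0.12 (RFXAP) and 0.07 (RFXANK), with ranges over the alternatives of -0.05 to -0.0012, 0.08 to 0.16 and 0.02 to 0.12. The coactivator CREBBP came nearest to the threshold (143.7 and 123 CPM, log2 fold change -0.22, adjusted p = 0.0843), and its groups did not overlap. It passed in edgeR without the line number (adjusted p = 0.0437) and in DESeq2 with it (0.0178) and without it (0.00206), the 1 factor of the 29 called in each of these fits. With the GC and length trends removed its log2 fold change was -0.11 (adjusted p = 0.146). Over all tested genes, edgeR without the line number called 149 of 16756, and DESeq2 with and without it 217 and 739. The NF-kappa-B genes REL and NFKB1 stood at -0.45 (-0.25 without line pair 2) and -0.15 (adjusted p = 0.180 and 0.200), the Polycomb subunits BCORL1 and SUZ12 at -0.34 and -0.15 (adjusted p = 0.174 and 0.222). The interferon factors IRF1 and STAT2 pointed in opposite directions, at 0.15 and -0.16 (adjusted p = 0.205 and 0.285). Of the 10 tested interferon receptors and proximal kinases, 6 were higher, 4 lower and 0 called, and with no low-count filter 1 was called (SOCS1, adjusted p = 0.0303). The 2 with the smallest p were the signal inhibitors SOCS1 (0.37, adjusted p = 0.261) and PTPN2 (0.14, adjusted p = 0.248). SOCS1 reached 14.8 CPM in VENins line 5, with 5.66 to 9.40 CPM in the other VENins lines, and its log2 fold change was 0.13 without line pair 5.

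Other interferon-induced genes did not move as a block. Of 22 tested, 12 were higher and 10 lower in VENins, with a median log2 fold change of 0.02, and 1 was called. Over all tested genes 0.197% were called. GBP2, a guanylate-binding protein induced by interferon gamma, fell from 6.42 ± 0.396 to 3.42 ± 0.977 CPM (SD, n = 5 each; log2 fold change -0.93, adjusted p = 0.0117, edgeR), lower in 5 of 5 line pairs. That call was lost without line pair 2 (-0.97, adjusted p = 0.105) or line pair 5 (-0.90, adjusted p = 0.0563), with log2 fold changes close to that of all lines. Its relatives GBP1 (-0.24, adjusted p = 0.105) and GBP4 (-0.64, adjusted p = 0.200; -0.30 without line pair 5, whose VENins line had 1.05 CPM) and the antiviral gene TRIM22 (-0.15, adjusted p = 0.220) were lower without passing the test. The relative GBP3, named after the values were seen, hardly differed (7.35 and 7.20 CPM, -0.03, adjusted p = 0.908, edgeR). It was higher in VENins in 3 line pairs and lower in 2, and GBP5 had 1 count in all. ISG15 (0.24, adjusted p = 0.237), OAS3 (0.22, adjusted p = 0.208; 0.14 without line pair 1) and IFITM2 (0.15, adjusted p = 0.308; 0.08 without line pair 5) were higher, also without passing it. GBP1 passed with the GC and length trends removed (adjusted p = 0.0474), in DESeq2 without the line number (0.0215) and with no low-count filter (0.0497), where GBP4 passed too (0.00115). GBP4 and OAS3 passed without VENins line 4 and the term for the line number (0.0487 and 0.0452). Over all genes, 142 were called with these trends removed and 739 in DESeq2 without the line number. With no low-count filter 664 were called, and 783 without VENins line 4 and the term for the line number.

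The class II genes share the X and Y boxes with class I and are driven by CIITA, the relative of NLRC5. Of 16 symbols, 7 were listed at 0, 7 were tested, all 7 had lower values in VENins, and 2 were called. Each of the 7 had an unadjusted p under 0.05 (edgeR), and 6 had groups that did not overlap. Over all tested genes 0.197% were called, 16.2% had such a p and 4.66% had such groups. CIITA was 84.8, 89.2, 77.2, 80.5 and 75.9 CPM in VENsens lines 1 to 5 and 52.8, 45.5, 59.3, 71.4 and 55.8 CPM in VENins lines 1 to 5. Every VENins line lay below every VENsens line, and VENins line 4 was again the highest of its group. CIITA fell by 0.53 on the log2 scale (95% interval -0.72 to -0.34, adjusted p = 0.0267, edgeR). The call was lost without line pair 2 (-0.42, adjusted p = 0.210) or line pair 5 (-0.55, adjusted p = 0.0689). HLA-DQA1 also fell (log2 fold change -0.84, adjusted p = 0.0407), on 40 to 116 counts per library, and its call was lost without any of line pairs 1, 2, 3 and 5 (log2 fold changes between -0.83 and -0.77, adjusted p between 0.0609 and 0.356). HLA-DRA (-0.34, adjusted p = 0.123), HLA-DQB1 (-0.36, adjusted p = 0.0837), HLA-DRB5 (-1.09, adjusted p = 0.0914), the invariant chain CD74 (-0.24, adjusted p = 0.0983) and cathepsin CTSS (-0.18, adjusted p = 0.146) did not pass. HLA-DQB1 and CD74 passed in edgeR without the line number (adjusted p = 0.0382 and 0.0479) and in DESeq2 with it (0.0281 and 0.0306), where 4 of the 7 were called in each fit, and HLA-DQB1 (0.0192) and HLA-DRA (0.0235) passed in edgeR without line pair 4. DESeq2 without the line number called 5 of the 7 (CIITA, HLA-DRA, HLA-DQB1, CD74 and CTSS), and HLA-DQA1 was not among them. Over all genes that fit called 739 of 16756, and edgeR with no low-count filter 664 of 32884. With no low-count filter 6 of 9 were called, with HLA-DRA (0.00425), HLA-DRB5 (0.0166), HLA-DQB1 (0.00144) and CD74 (0.000687) among them, and with the GC and length trends removed CD74 was the third gene called (0.0318). The HLA genes among them lie in the stretch of chromosome 6 described above and are uncertain in the same way, whereas CIITA, CD74 and CTSS lie elsewhere.

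The transactivators were then compared within each library, where scaling has no part. Log2 of the CIITA to NLRC5 count ratio, a quantity chosen after the values were seen, was 0.15, 0.38, 0.08, 0.15 and 0.14 in VENsens lines 1 to 5 and -0.21, -0.40, -0.13, -0.24 and -0.28 in VENins lines 1 to 5. The ratio was above 0 in every VENsens library and below 0 in every VENins library, line 4 included. Its sign does not rank the genes, since counts grow with length and the exons of CIITA span 20757 bases against 12386 for NLRC5. Per kilobase of exon, CIITA was below NLRC5 in VENsens (3.93 and 5.80 RPKM) and in VENins (2.74 and 5.46 RPKM). The mean log2 ratios differed by -0.43 between the groups, a shift in which gene length has no part. No p is given for this ratio or the next, since both were chosen with the values in view. For the non-HLA partners of each class, log2 of CD74 to B2M, also chosen after the values were seen, differed by -0.19, and VENins line 5 (-1.06) lay within the VENsens range of -1.23 to -0.91.

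**Figure D3:**
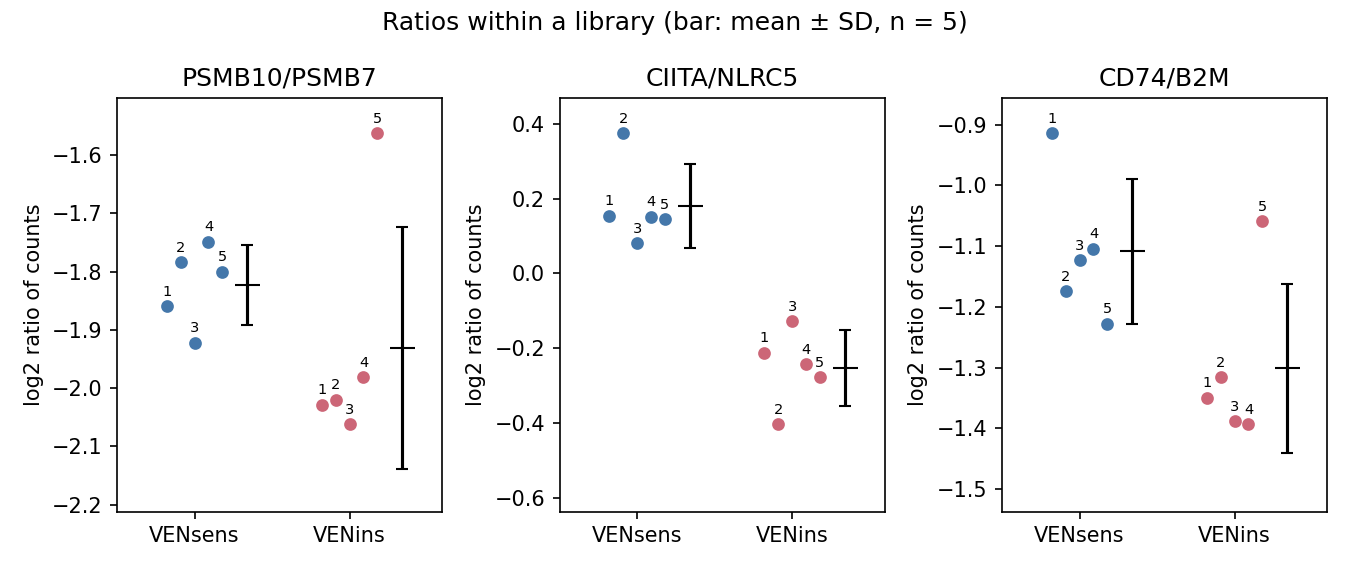
Log2 ratio of counts within each library for PSMB10 to PSMB7, CIITA to NLRC5 and CD74 to B2M in 5 VENsens and 5 VENins lines (numbered points), with the mean and SD of each group as a bar. The CIITA to NLRC5 ratio is above 0 in all 5 VENsens lines and below 0 in all 5 VENins lines. Counts are not corrected for gene length, so the sign does not rank the genes.

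Surface partners and turnover factors of class I were tested for 8 of 10 symbols, with 1 higher, 7 lower and 0 called. The ubiquitin ligase MARCHF9 (28.2 and 25.4 CPM, log2 fold change -0.15, adjusted p = 0.275) and TMEM127 (63.4 and 58.5 CPM, -0.12, adjusted p = 0.303; -0.04 with the GC and length trends removed), which takes part in class I degradation with SUSD6 and WWP2, had the smallest p.

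The 3 tested members did not follow each other closely over the 10 libraries. Pearson's r of log2 CPM was 0.610 between HLA-B and NLRC5, 0.477 between B2M and NLRC5 and 0.123 between HLA-B and B2M (Spearman's rho 0.552, 0.406 and -0.018). Among 14488 other genes, those most like the mean standardised log2 CPM of the 3 members over 10 libraries included BAG3 (Pearson's r 0.931), PDE4A (0.921), SEL1L3 (0.921) and FAM219B (0.909). The most opposed were RNF175 (-0.960), SS18 (-0.943) and PRICKLE2 (-0.929). These genes are the extremes of 14488 correlations over only 10 libraries that share the 2 conditions. How high such extremes reach by chance was not tested, so the correlations are descriptions and do not show shared regulation with class I.

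Neighbours on the chromosome were examined for the 2 members outside the complex. On either side of B2M, PATL2 had a log2 fold change of -0.13 (95% interval -0.29 to 0.03) and TRIM69 of 0.03 (-0.10 to 0.16). Beside NLRC5, CETP stood at 0.06 (-0.18 to 0.30) and CPNE2 at -0.27 (-0.56 to 0.02). None of these 4 genes was called in edgeR over all lines with the low-count filter. CPNE2 stood at -0.15 without line pair 1 and was called with no such filter (adjusted p = 0.0337), without line pair 4 (-0.49, adjusted p = 0.00530), and without VENins line 4 alone and with no term for the line number (-0.51, adjusted p = 0.0183), a setting chosen after the values were seen.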

How the data were processed

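The authors deposited raw counts of reads per Ensembl gene for each library, and the submitters' processing notes name bcl2fastq 2.20.0.422, Bowtie2 2.3.5.1, SAMtools 1.9, HTSeq 0.9.1 and hg19. The annotation release and strand setting of the counting were not given in the sources used here. Symbols came from GENCODE 29, which named 52526 of 63677 identifiers, and identifiers without a name held 0.907% of counts. Unassigned reads stayed out of library sizes.

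Counts were filtered with filterByExpr, scaled by TMM and fitted in edgeR 4.0.16 (R 4.3.3, quasi-likelihood F test) with line number and condition. The term for the line number follows the study's methods, which describe a paired analysis run with DESeq2. P-values were adjusted by Benjamini-Hochberg over all tested genes at 0.05. DESeq2 1.42.0 and other settings were alternatives. Of these fits, only the main edgeR fit and DESeq2 with the line number were tried on simulated data. Ratios of counts plus 0.5 were compared by two-sided exact permutation. RPKM used GENCODE exon lengths. Libraries of a group differed beyond counting error (chi-square over degrees of freedom 1.93 to 14.3 for 20 pairs).

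Named were all members, listed genes with p under 0.05 or the 2 smallest, the 5 genes most and 3 least correlated with the members, and neighbours; some genes that this rule takes are not reported here. Members and lists were chosen with earlier results of these data known.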

Additional observations from a re-analysis of the deposited data

Results flagged for a closer look

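In each condition, a line was examined when its gap to the nearest other line took up more than 0.71 of the group's range. Of 22 groups of values, 5 met this, and chance alone gives about 1 in 20. In the PSMB10 to PSMB7 ratio, VENins line 5 had a log2 value of -1.56 and the other VENins lines -2.06 to -1.98. The same line had a log2 CD74 to B2M ratio of -1.06, with -1.39 to -1.32 in the other VENins lines. In the CIITA to NLRC5 ratio, VENsens line 2 had a log2 value of 0.38 (others 0.08 to 0.15), which lies farther from the VENins lines. HLA-DQA1 was 2.79 CPM in VENins line 4 (others 1.74 to 2.02 CPM), and GBP2 was 5.74 CPM in VENsens line 1 (others 6.44 to 6.73 CPM). What sets these lines apart was not tested.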

How the results depend on the processing

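B2M and NLRC5 kept a lower mean in VENins and stayed short of the threshold in all 14 alternatives each, with log2 fold changes of -0.11 to -0.01 and -0.18 to -0.01. HLA-B stayed short of it in all 14 and turned positive without line pair 1 (0.0065) or line pair 2 (0.02), with a range of -0.155 to 0.024 over the left-out pairs, and the cause was not tested. Of the other named genes, 50 were run through the alternatives, 17 of them chosen after seeing the data, with 48 calls gained and 11 lost in 695 comparisons. Direction changed in 7: PSMB5 with the length and GC trend taken out (-0.016), without line pair 2 (-0.028) or 4 (-0.042; range to 0.064) and without VENins line 4 and the block (-0.030), SDC1 without line pair 1 (-0.051) or 5 (-0.0051; range to 0.202), and PSMB10 without line pair 5 (-0.039; range to 0.087), and the cause was not tested.

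The number of called genes moved with the processing. With line number in the model as a block, 33 genes passed, and 149 passed in edgeR without the block. It was 217 in DESeq2 with the line number and 739 in DESeq2 without it, 664 with no filter on low counts, 142 with the length and GC trend taken out, and 783 without VENins line 4 and without the block, a setting chosen after seeing the data. Leaving out line pairs gave 6 to 331, the lowest without pair 2, the highest without pair 4, and 9 without pair 5. The PSMB10 to PSMB7 difference ranged from -0.195 to -0.076 over the left-out pairs, with a p under 0.05 without pair 5 (-0.195, p = 0.0286), and paired sign flipping gave -0.11 (exact permutation p = 0.375). Same-numbered lines did not deviate together: their correlations were -0.103, 0.028, -0.017, 0.0094 and -0.080, and no VENsens line correlated best with the VENins line of its number. The line numbers therefore name the lines without a pairing visible in the counts.

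HLA-C, HLA-E and TAPBP had at most 10 counts per library and were fitted only with no filter on low counts, where 0 of 6 members were called. The members listed at 0 were not compared. Whether library depth is the reason was not tested, and TUBB and RPS18 in the same stretch had 1 and 3 counts over all libraries.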
